A study of Mus musculus with 2 samples.

Results

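The forkhead (Fox) transcription factors were examined in differentiating mouse ESCs (embryonic stem cells) with and without the inducible knockout of Ino80, the ATPase of the INO80 chromatin remodeler. The members were all genes of the deposited expression values whose symbol is Fox followed by a subclass letter from a to s and a number, which gave 44 of 24354 genes in 19 subclasses. Expression was measured by mRNA sequencing in 2 libraries, 1 each of the Diff–CONT and Diff–iKO cultures. In the study's methods, both lines came from blastocysts homozygous for a floxed Ino80 allele (2f/2f), and only the iKO line carried CreER, a Cre recombinase that 4-OHTM activates, at the ROSA26 locus. The sample labels call the control genotype WT and the other Ino80 knockout. Both cultures formed EBs (embryoid bodies), which were left to attach on day 4 and from the next day were kept for 7 days in serum medium with BMP4 and 0.5 µM 4-OHTM, so the control cells also received the drug. Because each condition had 1 library, no difference has a replicate check and no p-value is given. The 2 cultures also came from different lines, so line and knockout cannot be told apart.

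Forkhead factors share a winged-helix DNA-binding domain named after the fork head gene of the fruit fly, in which one helix, the recognition helix, lies in the major groove of DNA. FOXA proteins are pioneer factors that open chromatin for the endoderm programme of gut, liver and lung. FOXC and FOXF proteins act in mesoderm, in paraxial and vascular cells and in the lateral plate and gut mesenchyme respectively. FOXD3 is known for the maintenance of pluripotent cells and for neural crest, while FOXO and FOXK proteins are made in most cells and link growth factor signals to metabolism and stress responses.

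The coding sequence of the recognition helix shows how alike the members are at the place where they touch DNA. A window of 48 bases that encodes 16 residues, starting at a conserved tryptophan, was found in 43 of the 44 members by its residue pattern in GENCODE vM21 transcripts (GRCm38, the same assembly as mm10), and was not found in Foxr1. Shown are 5 of the 8 members past the cut-off used further on, with Foxa3 as the 1 example from the endoderm group, and Foxf2 as the paralog of Foxf1. Capitals mark the bases that differ from Foxd3.
Foxd3 (chr4:99657147-99657194, plus strand): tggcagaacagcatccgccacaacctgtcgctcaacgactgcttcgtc
Foxa3 (chr7:19014666-19014713, minus strand): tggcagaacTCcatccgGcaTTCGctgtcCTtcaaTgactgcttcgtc
Foxc1 (chr13:31807571-31807618, plus strand): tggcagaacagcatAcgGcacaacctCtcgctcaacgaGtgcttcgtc
Foxf1 (chr8:121084672-121084719, plus strand): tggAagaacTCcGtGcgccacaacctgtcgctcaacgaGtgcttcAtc
Foxf2 (chr13:31626509-31626556, plus strand): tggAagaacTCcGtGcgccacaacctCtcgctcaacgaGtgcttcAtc
Foxq1 (chr13:31559391-31559438, plus strand): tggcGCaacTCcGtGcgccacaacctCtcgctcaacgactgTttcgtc

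Each of these windows lies inside 1 coding exon. Of the 16 encoded residues, Foxc1 shared 15 with Foxd3, Foxa3 and Foxq1 shared 14, and Foxf1 and Foxf2 shared 12. Over the other 42 members with the window the shared residues ranged from 9 to 16, with a median of 13, and the shared bases from 27 to 48 of 48. Foxd4 was identical to Foxd3 in the window. The longest identical run in any of 946 pairs of member transcripts was 68 nucleotides, between Foxd3 and Foxd4, followed by 53 nucleotides between Foxc1 and Foxc2, and no other pair shared 50 or more. Single-exon genes were common in the family. They made up 13 of 44 members, or 29.5%, against 10.2% of the protein-coding genes with a matched transcript.

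Ino80, the targeted gene, had an FPKM (fragments scaled for transcript length and library size) of 8.90 in Diff–CONT and 10.3 in the Diff–iKO-labelled library. The whole-gene value was therefore not reduced under the knockout label, and FPKM per gene does not resolve the floxed exon, so all directions refer to the Diff–iKO-labelled library. About 28151465 fragments lay on genes in Diff–CONT and 21920106 in the Diff–iKO-labelled library, recovered from the steps in the FPKM values. Each log2 ratio is given with an exact 95% interval (Clopper-Pearson) made from these fragments, which covers counting error only. Cell-type markers differed between the libraries. The 7 markers of undifferentiated ESCs summed to 441 FPKM in Diff–CONT and 2827 in the Diff–iKO-labelled library, with 6 of 7 higher past the cut-off, and none was listed at 0 in either library. In such bulk samples, fewer cells of a type and less RNA per cell cannot be told apart.

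A gene was called when its FC (fold change) was at least 2 and its FPKM at least 2 in at least 1 library. Of the 44 members, 23 reached that FPKM, and of these 1 was higher, 7 were lower and 15 were not past the cut-off in the Diff–iKO-labelled library. Over all 12376 genes that reached the FPKM minimum, 15.1% were called, 6.73% higher and 8.39% lower. Foxd3 was the higher member, and Foxa1, Foxa2, Foxa3, Foxc1, Foxf1, Foxp2 and Foxq1 were the lower ones. For 6 of these 8, FPKM reached 2 in only 1 library, the one where the gene was higher. Among the 17 members at the minimum in both libraries 2 were called, Foxa2 and Foxq1, both lower, where 9.47% of all such genes were called, 4.37% higher and 5.1% lower. The median log2 ratio (FPKM + 0.1) of the 25 members whose mean FPKM was at least 1 was -0.42, with 18 below 0 and 7 above, against a median of -0.01 over all genes with that mean. Over the 14 members whose mean FPKM was at least 5, the median was -0.17.

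**Figure D1:**
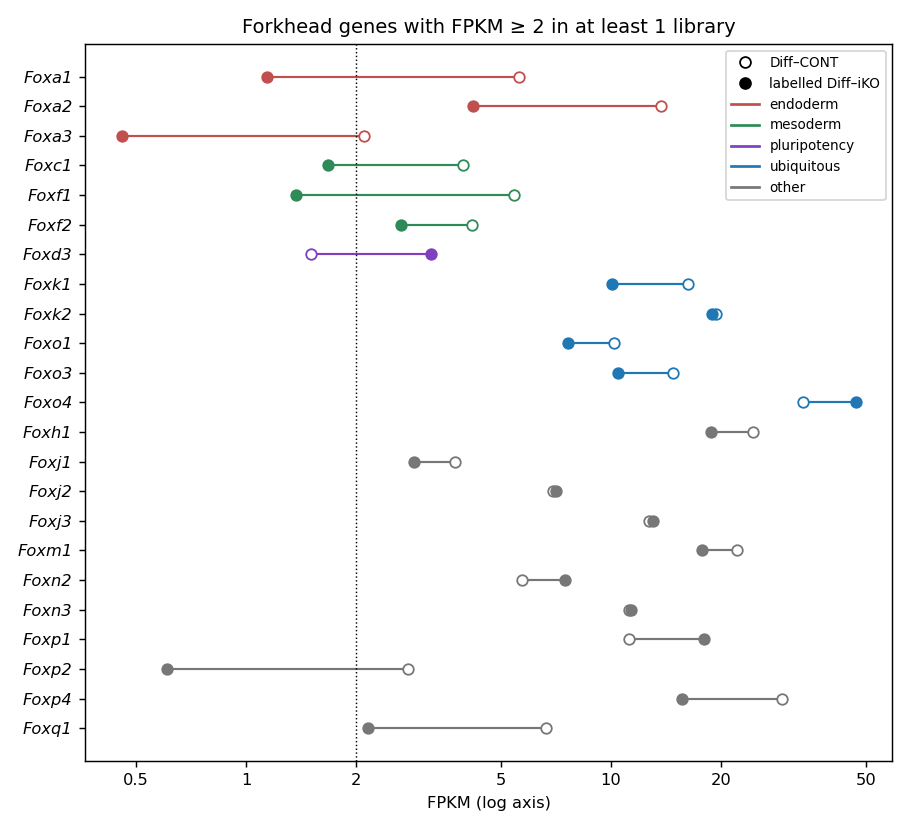
FPKM of the 23 forkhead genes with FPKM of at least 2 in at least 1 library, on a log axis, with Diff–CONT as open and the Diff–iKO-labelled library as filled circles, coloured by group; the dotted line marks FPKM 2. Foxo4 had the highest level in both libraries, and Foxa1, Foxa3, Foxc1, Foxf1 and Foxp2 crossed the line downwards while Foxd3 crossed it upwards.

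The endoderm subclass was lower as a whole. Foxa2, which acts in definitive endoderm, node and notochord, was the highest of the 3 with 13.8 FPKM in Diff–CONT and 4.19 in the Diff–iKO-labelled library, a log2 ratio of -1.72 (interval -1.96 to -1.48, from about 774 and 176 fragments). Foxa1, its partner in gut and lung epithelium, had 5.62 and 1.14 FPKM, a log2 ratio of -2.29 (-2.66 to -1.94). Foxa3, best known from liver and gut, had 2.10 and 0.457 FPKM, a log2 ratio of -2.20 (-2.97 to -1.48, from about 116 and 19 fragments). The 3 genes lie on different chromosomes, Foxa1 on chromosome 12, Foxa2 on chromosome 2 and Foxa3 on chromosome 7. Their summed FPKM was 21.5 in Diff–CONT and 5.79 in the Diff–iKO-labelled library, which was 7.72% and 2.51% of all forkhead FPKM. The median log2 ratio of the subclass was -1.98.

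A list of 20 FOXA partners and targets in endoderm was set beside them. At the FPKM minimum were 17, of which 12 were lower and 1 was higher, with a median log2 ratio of -2.92. The median was -1.86 over the 13 genes whose mean FPKM was at least 5, -1.81 over all 20 and -1.92 with a pseudocount of 1. The largest folds were those of yolk sac and liver secretory genes. Apob, an apolipoprotein, had 47.0 FPKM in Diff–CONT and 0.290 in the Diff–iKO-labelled library, Afp (alpha-fetoprotein) 45.9 and 0.422, and Apoa1 34.8 and 0.444. Rbp4, the retinol carrier, went from 111 to 3.05 FPKM. Trf, the iron carrier transferrin, was higher at 4.18 and 11.2 FPKM, and Apoa2, a further apolipoprotein gene, was not past the cut-off at 7.96 and 6.54 FPKM. The epithelial adhesion genes Cdh1, at 166 and 268 FPKM, and Epcam, at 79.0 and 116 FPKM, were not past the cut-off. The 8 markers of visceral endoderm are all in this list too and are no separate set. They summed to 320 and 21.4 FPKM with 7 lower and 1 higher. The 6 of definitive endoderm, of which Sox17 and Gata6 are also in the list, summed to 42.2 and 17.6 FPKM with 4 lower. The 6 markers of gut epithelium, among them Cdh1 and Epcam, summed to 1187 and 1687 FPKM. Of these 1 was lower and none higher, with a median log2 ratio of 0.48. None of these endoderm and gut markers was listed at 0. The part of cell composition in the Foxa values was not tested.

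The mesoderm members were lower in part. Foxf1, a factor of lateral plate and gut mesenchyme, had 5.42 FPKM in Diff–CONT and 1.37 in the Diff–iKO-labelled library, a log2 ratio of -1.98 (-2.38 to -1.61). Its paralog Foxf2 had 4.17 and 2.66 FPKM, a log2 ratio of -0.65 (-0.96 to -0.34), which was not past the cut-off. The counting intervals of the paralogs did not overlap. Foxc1, which acts in somites, vessels and cranial mesenchyme, had 3.92 and 1.68 FPKM, a log2 ratio of -1.23 (-1.46 to -1.0). With 1 added to each FPKM its log2 ratio was -0.88 and it was no longer past the cut-off. Its paralog Foxc2, a factor of lymphatic vessels, stayed under the FPKM minimum with 1.40 and 0.527 FPKM, a log2 ratio of -1.41 (-2.05 to -0.82). Together the 4 genes summed to 14.9 and 6.24 FPKM, or 5.36% and 2.7% of forkhead FPKM.

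These genes sit in clusters. On chromosome 8, Foxf1 (121084386 to 121088144), Foxc2 (121116171 to 121118895) and Foxl1 (121127940 to 121130644) lie within 46.3 kb on the plus strand. Foxl1, known from gut mesenchyme, was low at 0.336 and 0.0804 FPKM, a log2 ratio of -2.06 (-3.64 to -0.49, from about 25 and 5 fragments). Fendrr, a long noncoding RNA transcribed away from Foxf1 on the other strand (121054882 to 121083110), had 1.26 and 0.144 FPKM, a log2 ratio of -3.14 (-4.51 to -2.04). All 3 forkhead genes and Fendrr had lower values in the Diff–iKO-labelled library, with Foxf1 the only one at the FPKM minimum. Mthfsd, a gene between Foxf1 and Foxc2, had 15.5 and 12.1 FPKM and was not past the cut-off. Of the outer neighbours, Irf8 had 0.676 and 0.252 FPKM and 1700018B08Rik 0.0373 and 0.149 FPKM, all under the minimum.

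On chromosome 13, Foxq1 (31556134 to 31560976), Foxf2 (31625816 to 31631403) and Foxc1 (31806633 to 31812476) lie on the plus strand within 256 kb. Foxq1, known from hair follicle and gastric epithelium, had 6.64 FPKM in Diff–CONT and 2.16 in the Diff–iKO-labelled library, a log2 ratio of -1.62 (-1.83 to -1.41). Foxq1 and Foxc1 were thus past the cut-off at both ends of the cluster, and Foxf2 between them was not. 1700018A04Rik, which starts next to Foxf2 on the opposite strand, was near 0 at 0.126 and 0.0841 FPKM. The flanking genes were not past the cut-off, with 17.3 and 13.9 FPKM for Exoc2 and 9.81 and 11.6 FPKM for Gmds, and the value of Gmds was on the other side of 0. A further pair, Foxd2 and Foxe3 on chromosome 4, stayed under the minimum. Foxd2 had 0.534 and 0.275 FPKM and Foxe3 0.0489 FPKM in Diff–CONT and was listed at 0 in the Diff–iKO-labelled library. Foxd2os between them had 0.471 and 0.613 FPKM, and of their neighbours Gm12830 was listed at 0 in both libraries and Cmpk1 had 30.9 and 36.0 FPKM.

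**Figure D2:**
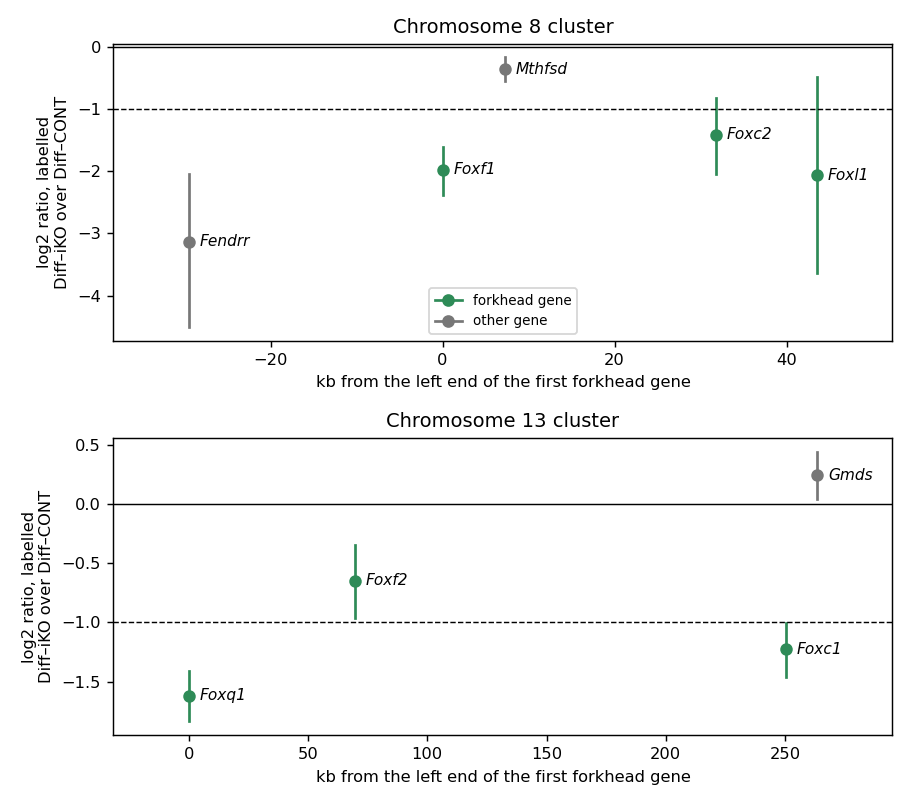
Log2 ratios of FPKM (library labelled Diff–iKO over Diff–CONT) against distance in kb from the left end of Foxf1 (top) or Foxq1 (bottom), with each gene at its left end; bars are 95% counting intervals, green marks forkhead genes, grey other genes, and the dashed line a 2-fold lower value; the outer neighbours other than Gmds and 1700018A04Rik are not drawn. Every forkhead gene lies below 0, while Mthfsd is nearer to 0 and Gmds above it.

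Of 30 partners and targets of FOXF and FOXC in mesoderm, 23 reached the FPKM minimum, and 15 were lower and 2 higher, with a median log2 ratio of -1.36. Hand2, a factor of lateral plate and heart, had 9.07 FPKM in Diff–CONT and 1.41 in the Diff–iKO-labelled library, and its relative Hand1 70.8 and 31.3 FPKM. Dll4, the Notch ligand of arterial vessels, had 2.11 and 0.396 FPKM, and the chemokine Cxcl12 49.2 and 17.5 FPKM. Pdgfrb, a receptor of mesenchymal cells, was not past the cut-off at 39.3 and 26.3 FPKM. The higher ones were Tcf15, a factor of somites that is also made in pluripotent cells, at 1.39 and 13.2 FPKM, and the integrin Itgb3, at 7.90 and 16.4 FPKM. Of the markers that follow, Hand1, Hand2, Bmp4, Tbx20, Meox1, Tcf15, Twist1, Tbx18, Cdh5, Kdr and Tek are also among these 30 genes. Of the 7 markers of lateral plate mesoderm 6 were lower, with a sum of 162 FPKM in Diff–CONT and 54.1 in the Diff–iKO-labelled library. Of the 6 paraxial markers 1 was higher, Tcf15, and none lower, with sums of 20.3 and 25.2 FPKM. Among the 5 whose mean FPKM was at least 1, Tcf15 was above 0 and the other 4 were below 0, with a median log2 ratio of -0.24. Of the 6 endothelial markers 4 were lower and 1 higher, and their sum was 51.9 FPKM in Diff–CONT and 68.4 in the Diff–iKO-labelled library, where the higher one, Pecam1, went from 16.2 to 53.9 FPKM. None of these was listed at 0, and their part in the Foxc and Foxf values was not tested.

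Foxd3 was the single called member with a higher value. It is a gene of 1 exon on chromosome 4, and had 1.51 FPKM in Diff–CONT and 3.22 in the Diff–iKO-labelled library, a log2 ratio of 1.10 (0.72 to 1.48, from about 96 and 154 fragments). The fold of 2.14 was close to the cut-off. With 1 added to each FPKM the log2 ratio was 0.75 and the call was lost. Foxd4, with which it shares its longest identical run, had 0.154 and 0.0826 FPKM. Foxd1 had 1.27 and 1.14 FPKM. Foxd3 held 0.542% of forkhead FPKM in Diff–CONT and 1.39% in the Diff–iKO-labelled library.

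Of 20 partners of FOXD3 in pluripotent cells and neural crest, 19 reached the minimum, with 10 higher, 4 lower and a median log2 ratio of 1.36. The higher ones were pluripotency genes apart from the neurotrophin receptor gene Ngfr. Pou5f1, the gene of OCT4, had 60.8 FPKM in Diff–CONT and 247 in the Diff–iKO-labelled library, Tdgf1, the Nodal co-receptor, 49.8 and 259, and Utf1 27.0 and 101. The largest folds were those of Esrrb, at 7.10 and 42.0 FPKM, and Klf2, at 6.15 and 33.7 FPKM, which both encode factors of naive pluripotency. The 4 lower ones were Fgf5, a marker of the epiblast, and the neural crest genes Tfap2a, Snai2 and Sox9. The 6 neural crest markers are all in this list too, so their calls, 3 lower and 1 higher, are those just named. Their sum was 40.7 and 31.8 FPKM. All the undifferentiated ESC markers except Dppa5a are in the list as well. The part of the undifferentiated ESC markers in the Foxd3 value was not tested.

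Of the 8 called members, 4 had a promoter window at a single annotated start, and these are shown because the 4 genes moved in both directions. The bases are the 250 before the start in RefSeq (GRCm38.p6), and capitals mark matches to motifs on either strand. The RefSeq start of Foxa1 lies 805 bases downstream of the 5′ end of its GENCODE gene, so the line shown for Foxa1 is inside that gene and not before it. The starts of Foxa3, Foxc1 and Foxd3 lie within 13 bases of the GENCODE 5′ end. The core that many forkhead proteins bind was searched as TGTTTAC. The GC box, bound by SP factors, was searched as GGGCGG. The TATA box near many starts was searched as TATAAA. The site of GATA factors was searched as AGATAA and has no match in the lines shown. The same is true of the FOXH1 site, searched as AATCCACA. No matches overlap in these lines.
Foxa1 (chr12:57546112-57546361, minus strand): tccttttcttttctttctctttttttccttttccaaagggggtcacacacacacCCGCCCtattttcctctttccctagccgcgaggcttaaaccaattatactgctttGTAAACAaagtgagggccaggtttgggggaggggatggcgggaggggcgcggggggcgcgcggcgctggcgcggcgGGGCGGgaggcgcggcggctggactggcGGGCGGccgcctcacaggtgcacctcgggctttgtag
Foxa3 (chr7:19023540-19023789, minus strand): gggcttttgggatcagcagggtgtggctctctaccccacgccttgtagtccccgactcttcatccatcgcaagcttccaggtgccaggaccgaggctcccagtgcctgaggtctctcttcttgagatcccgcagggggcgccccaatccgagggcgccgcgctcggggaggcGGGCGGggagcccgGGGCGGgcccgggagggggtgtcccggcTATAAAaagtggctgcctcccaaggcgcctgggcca
Foxc1 (chr13:31806396-31806645, plus strand): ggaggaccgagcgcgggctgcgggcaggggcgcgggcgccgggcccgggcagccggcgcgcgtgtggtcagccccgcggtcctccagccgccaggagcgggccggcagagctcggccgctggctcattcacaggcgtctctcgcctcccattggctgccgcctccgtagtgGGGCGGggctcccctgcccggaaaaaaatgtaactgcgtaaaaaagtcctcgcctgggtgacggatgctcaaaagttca
Foxd3 (chr4:99656049-99656298, plus strand): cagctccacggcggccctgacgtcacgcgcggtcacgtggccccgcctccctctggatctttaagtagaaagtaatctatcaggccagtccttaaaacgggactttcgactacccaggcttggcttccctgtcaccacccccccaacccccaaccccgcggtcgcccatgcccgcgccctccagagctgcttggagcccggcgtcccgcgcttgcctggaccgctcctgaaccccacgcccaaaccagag

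The 28 members with an entry had 33 windows of 300 bases, 250 before and 50 after the start, among 32851 windows of all genes. The forkhead core was in 1 of the 33 member windows, that of Foxa1, and in 3.65% of all windows. The GC box was in 24 member windows, or 72.7%, against 35.7% of all windows. The TATA box was in 3 member windows and 13.6% of all, the GATA site in 2 and 11.2% of all, and the FOXH1 core in 0 and 0.855% of all. Member windows held a median of 22 CpG dinucleotides, against 7 over all windows. Of the lines shown, that of Foxd3 has no capitals, and those of the 3 lower members each have at least 1 GC box. A match is a description of letters and not of binding. Foxf1, Foxp2 and Foxq1 have no entry, and Foxa2 has 3 windows.

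The ubiquitous members, which held more forkhead RNA per length than the endoderm, mesoderm or pluripotency group, had no call. Foxo4, a target of AKT signals, was the highest forkhead gene in both libraries with 33.7 FPKM in Diff–CONT and 46.9 in the Diff–iKO-labelled library, a log2 ratio of 0.48 (0.40 to 0.55). It is X-linked. The median log2 ratio of X-linked genes was 0.16, above the range of the autosomes, -0.08 to 0.06, and Xist, the RNA that coats the inactive X chromosome, had 0.0639 and 3.59 FPKM. The part of the X chromosome in the Foxo4 value was not tested. Foxo1, a mediator of insulin signals, had 10.2 and 7.62 FPKM, a log2 ratio of -0.42 (-0.52 to -0.33). Foxo3, known from stem cell quiescence and stress resistance, had 14.8 and 10.4 FPKM, a log2 ratio of -0.50 (-0.64 to -0.36). The 3 Foxo genes at the minimum thus differed in direction, and Foxo6 stayed under it at 1.04 and 0.533 FPKM.

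Foxk1, a repressor of autophagy genes, had 16.2 FPKM in Diff–CONT and 10.1 in the Diff–iKO-labelled library, a log2 ratio of -0.69 (-0.77 to -0.60). Its paralog Foxk2 had 19.4 and 18.9 FPKM, a log2 ratio of -0.04 (-0.12 to 0.05). The intervals of the paralogs did not overlap, and that of Foxk2 included 0. The median log2 ratio of the 5 Foxo and Foxk genes whose mean FPKM was at least 1 was -0.42. The summed FPKM of the 6 genes was 95.4 and 94.5, which was 34.3% of forkhead FPKM in Diff–CONT and 40.9% in the Diff–iKO-labelled library, while the sum over all 44 members was 278 and 231 FPKM.

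**Figure D3:**
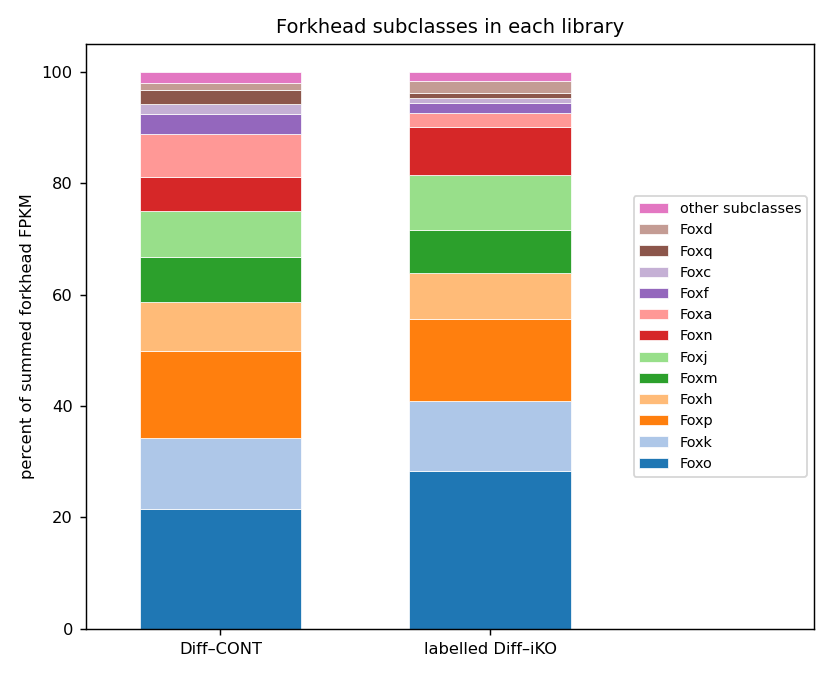
Percent of the summed forkhead FPKM (vertical axis) held by each subclass in Diff–CONT and in the Diff–iKO-labelled library, 1 library each, as stacked bars. Foxo rises from 21.5% to 28.4% and Foxa drops from 7.72% to 2.51%, while Foxk (12.8% and 12.5%) and Foxp (15.6% and 14.8%) differ by less.

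FOXO activity is set mainly by phosphorylation, which RNA does not show, so regulators and targets were described as RNA only. None of 14 regulators was past the cut-off, with a median log2 ratio of -0.01, which was 0.01 with the libraries scaled to the same upper quartile and -0.10 with the same FPKM sum. Ywhae and Ywhaz, the 14-3-3 proteins that hold phosphorylated FOXO in the cytoplasm, had 371 and 291 FPKM and 88.5 and 80.9 FPKM, and the kinase gene Akt1 94.9 and 100.2. Of 27 FOXO targets, 25 reached the minimum, with 2 lower, 1 higher and a median of -0.33. The lower ones were Cdkn1b, the cell cycle inhibitor p27, at 24.8 FPKM in Diff–CONT and 8.86 in the Diff–iKO-labelled library, and the mitophagy gene Bnip3, at 81.8 and 29.2 FPKM. The higher one was Klf2, which is also in the list of FOXD3 partners. The targets with the highest mean FPKM over both libraries, Eif4ebp1 (90.8 and 153 FPKM), Txnip (112 and 60.9 FPKM) and Map1lc3b (56.1 and 58.0 FPKM), were not past the cut-off.

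Foxp genes act in development of lung, heart, brain and immune cells, and their members went in different directions. Foxp2, known from brain and lung epithelium, had 2.78 FPKM in Diff–CONT and 0.607 in the Diff–iKO-labelled library, a log2 ratio of -2.20 (-2.76 to -1.66). Foxp4, the second highest forkhead gene in Diff–CONT, had 29.4 and 15.6 FPKM, a log2 ratio of -0.91 (-1.02 to -0.81). Its fold of 1.88 was just short of the cut-off, and with both libraries scaled to the same FPKM sum its log2 ratio was -1.01 and it passed. Foxp1, which has a splice form made in ESCs that FPKM per gene does not separate, had 11.2 and 17.9 FPKM, a log2 ratio of 0.68 (0.54 to 0.82). Foxp3, the factor of regulatory T cells, was listed at 0 in Diff–CONT and at 0.0255 FPKM in the Diff–iKO-labelled library.

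None of the Foxn and Foxj genes at the FPKM minimum was past the cut-off. Foxn2 had 5.70 FPKM in Diff–CONT and 7.49 in the Diff–iKO-labelled library, a log2 ratio of 0.39 (0.25 to 0.53), and Foxn3, a transcriptional repressor, 11.2 and 11.3 FPKM. Foxj2 had 6.92 and 7.07 FPKM and Foxj3 12.7 and 13.1 FPKM. The intervals of Foxn3, Foxj2 and Foxj3 included 0, and with the libraries scaled to the same FPKM sum their log2 ratios of 0.01, 0.03 and 0.04 became -0.08, -0.06 and -0.06. Foxj1, the switch gene of motile cilia, had 3.75 and 2.89 FPKM, a log2 ratio of -0.37 (-0.67 to -0.09).

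Of 24 motile cilium genes and their regulators, 6 reached the FPKM minimum, with 2 higher and 1 lower. Rfx2, a factor that acts with FOXJ1, had 5.42 FPKM in Diff–CONT and 11.2 in the Diff–iKO-labelled library, and lost the call with both libraries scaled to the same FPKM sum, at a log2 ratio of 0.95, and with a pseudocount of 1, at 0.92. Its relative Rfx3 had 6.05 and 2.43 FPKM. Ccno, needed for centriole amplification, had 0.237 and 2.08 FPKM, and Rsph9, a part of the radial spoke, 4.54 and 2.59 FPKM without a call. The remaining 18 genes, among them the axonemal dyneins Dnah5, Dnah9 and Dnah11, stayed under the minimum. The median over the 9 genes whose mean FPKM was at least 1 was 0.29, and it was 0.17 over all 24 and 0.19 with a pseudocount of 1.

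Foxh1, the partner of SMAD proteins in the Nodal pathway, was the third highest forkhead gene in both libraries. It had 24.6 FPKM in Diff–CONT and 18.8 in the Diff–iKO-labelled library, a log2 ratio of -0.39 (-0.55 to -0.23). Of 14 genes of its pathway, 12 reached the minimum, with 4 higher, 3 lower and a median log2 ratio of -0.43, which was -0.20 over the 10 genes whose mean FPKM was at least 5. The ligand Nodal, its co-receptor Tdgf1 and its feedback inhibitors Lefty1 and Lefty2 were higher, with 26.9 and 186 FPKM for Lefty1 and 18.6 and 108 FPKM for Lefty2. Cer1, a secreted inhibitor made in anterior endoderm, was lower at 3.23 and 0.258 FPKM, as was Eomes. The receptor and SMAD genes of the list were not past the cut-off.

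Foxm1, the driver of G2/M genes, had 22.2 FPKM in Diff–CONT and 17.8 in the Diff–iKO-labelled library, a log2 ratio of -0.31 (-0.40 to -0.23). None of its 21 listed targets was past the cut-off, and their median log2 ratio was -0.15, or -0.25 with both libraries scaled to the same FPKM sum. Cks1b had 115 and 125 FPKM, Top2a 108 and 90.7, and Ube2c 89.2 FPKM in both libraries.

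**Figure D4:**
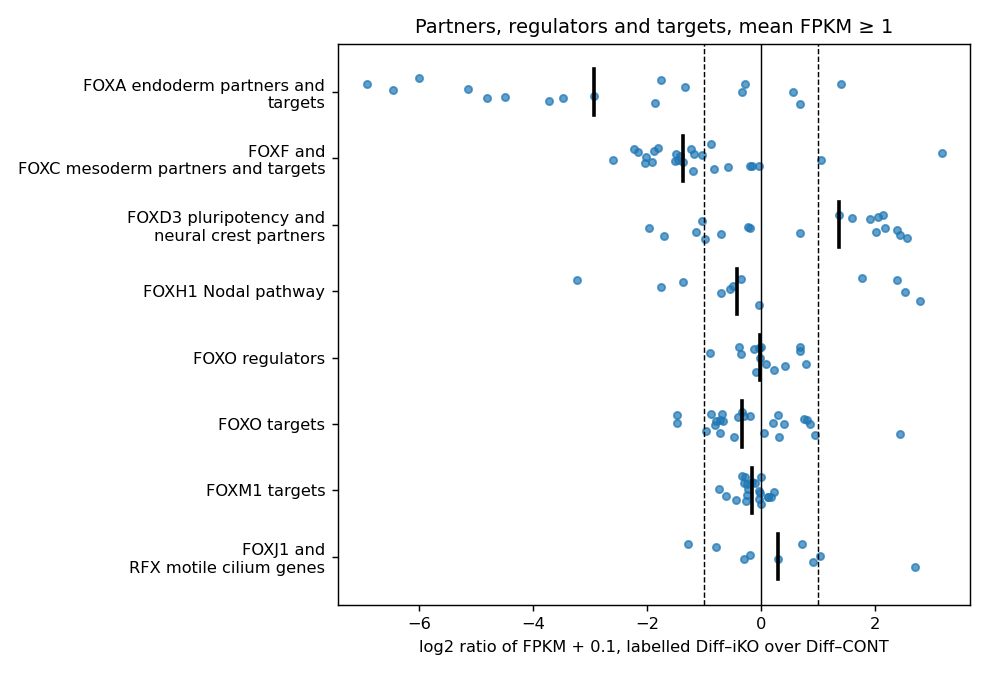
Log2 ratios of FPKM + 0.1 (library labelled Diff–iKO over Diff–CONT, horizontal axis) of genes whose mean FPKM was at least 1 in each list of partners, regulators or targets, 1 point per gene, with random vertical spread; black bars are medians and dashed lines a 2-fold difference. The FOXA list has its median at -2.92 and the FOXD3 list at 1.36, and all points of the FOXO regulators and FOXM1 targets lie between the dashed lines.

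The other 21 members stayed under an FPKM of 2 in both libraries, with 1.60 FPKM for Foxi3 in Diff–CONT as their highest value. Of these, 13 had a lower value in the Diff–iKO-labelled library and 7 a higher one, and Foxi1 was listed at 0 in both. Over all genes above 0 but under the minimum, 48.4% had a lower and 51.6% a higher value. The counting interval lay below 0 for 5 of the members and above 0 for 2, against 16.3% and 14.7% of all such genes with an interval. Foxe1, a thyroid factor, had 1.43 and 0.191 FPKM, a log2 ratio of -2.90 (-3.97 to -2.03). Foxn4, a factor of retinal and spinal neurons, had 0.120 and 0.897 FPKM, a log2 ratio of 2.91 (1.95 to 4.07). Foxn1, a thymus factor, had 0.0216 and 0.116 FPKM, a log2 ratio of 2.42 (0.09 to 5.69, from about 2 and 8 fragments). These 3 were named after their values were seen. Foxb2, Foxe3 and Foxi2 were listed at 0 in the Diff–iKO-labelled library, from at most 2 fragments in Diff–CONT.

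Taking the 23 members at the FPKM minimum by counting error alone, the interval lay below 0 for 15 and above 0 for 4, and included 0 for the other 4. Over all genes at the minimum, the interval lay above 0 for 38.7% and below 0 for 39.1%. Ordered by level among the 44, the 7 lower members held ranks 8 to 22 in Diff–CONT and 14 to 31 in the Diff–iKO-labelled library.

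**Figure D5:**
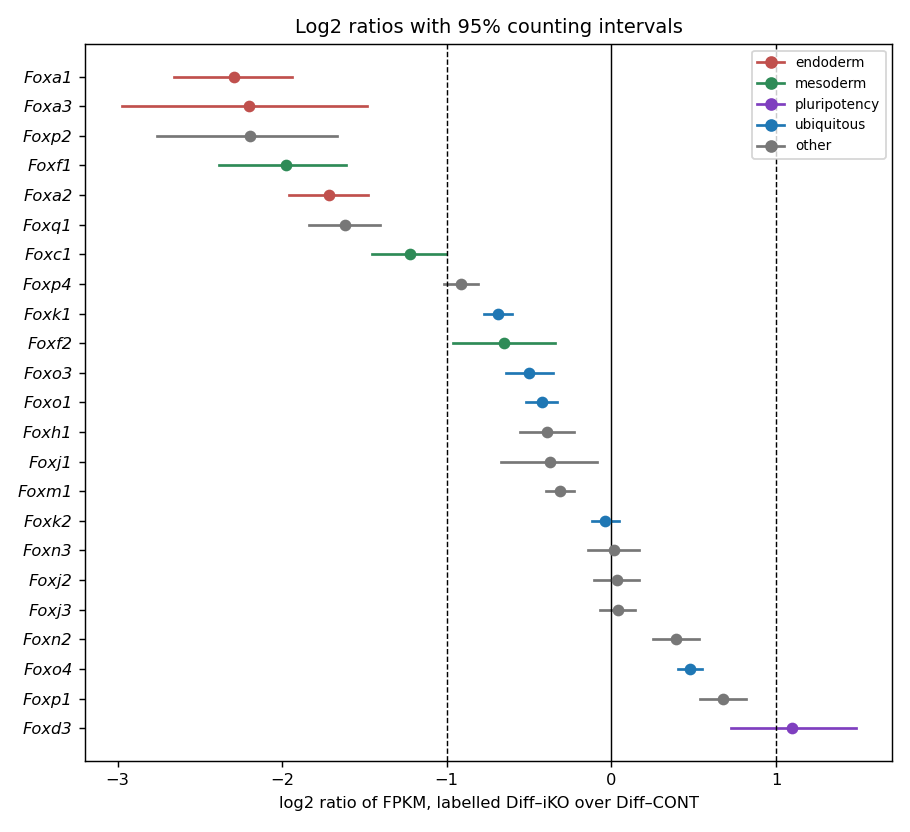
Log2 ratios of FPKM (library labelled Diff–iKO over Diff–CONT) of the 23 members at the FPKM minimum, sorted, with 95% counting intervals as bars and colours by group; dashed lines mark a 2-fold difference. Foxa1 is lowest at -2.29 and Foxd3 highest at 1.10, and Foxp4 and Foxk1 lie between the lower dashed line and 0.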

How the data were processed

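Poly(A) RNA of 1 Diff–CONT and 1 Diff–iKO culture was sequenced with a stranded kit (1 µg input), and FPKM values of 24354 genes were deposited by the authors. The submitters' notes name STAR 2.7.9a, mm10 and Cuffnorm of Cufflinks 2.2.1. The gene annotation and the strand setting are not given in the sources used here, so overlapping antisense genes are uncertain. There were 0 other columns of values. A gene passed the cut-off with FC ≥ 2 on unshifted values and FPKM ≥ 2 in either library, and no test was run, since each condition had 1 library. Medians used log2(FPKM + 0.1) over genes whose mean FPKM was at least 1. Fragments were recovered from the steps in FPKM and transcript length (86.7% and 87.0% of low values lay within 0.2 of a whole multiple, 40% by chance), and are approximate for genes with several transcripts. Genes were matched to GENCODE vM21 by symbol (23315) or RefSeq synonym (666), and 373 were not matched. Steps were tested on simulated data.

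The members and lists were chosen with earlier results of these data known. Every member with FPKM ≥ 2 in 1 library was named, with paralogs, cluster neighbours, Ino80, and of each list the 3 genes with the highest mean FPKM and up to 3 past the cut-off with the largest fold; other genes were named after their values were seen. Of the marker lists not described with the members, the summed FPKM in Diff–CONT and in the Diff–iKO-labelled library was 90.6 and 0.527 for blood. It was 71.9 and 53.0 for neural, 60.8 and 127 for trophoblast and 1374 and 1424 for fibroblast or mesenchyme markers. Of the last sums, Col1a1 alone held 880 and 1199 FPKM. Among those 6 markers 3 were lower and none higher, with 5 log2 ratios below 0, 1 above and a median of -1.05. The blood marker Hba-x was listed at 0 in the Diff–iKO-labelled library. The work was done in Python 3.11.15 with scipy 1.17.1, pandas 2.3.3, numpy 2.4.6 and matplotlib 3.10.9. The alternatives were other pseudocounts, folds, filters and 3 scalings. Some items are not reported here.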

Additional observations from a re-analysis of the deposited data

How the results depend on the processing

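No paired analysis was possible because each condition had 1 library, and no library could be left out. Of 115 log2 ratios of members under the alternatives, 109 kept their direction and their side of the cut-off. Foxc1 and Foxd3 with a pseudocount of 1 and Foxp4 scaled to the same FPKM sum changed sides, and Foxj2, Foxj3 and Foxn3 changed sign under that scaling without passing the cut-off. From 1 higher and 7 lower members, the count of higher members was 0 with a pseudocount of 1, with FPKM ≥ 5 and with FPKM ≥ 2 in both libraries, and the counts of lower members were 4 with FPKM ≥ 5 and 2 with FPKM ≥ 2 in both. With FC ≥ 1.5, 2 members were higher and 10 lower, with FC ≥ 4, 0 were higher and 3 lower, and without a filter 5 were higher and 14 lower. Over all genes, 833 higher and 1038 lower became 1846 and 2177 with FC ≥ 1.5, 278 and 237 with FC ≥ 4, 2794 and 2761 without a filter and 488 and 569 with FPKM ≥ 2 in both, and 671 were lower with FPKM ≥ 5. The median of the Foxa genes was -1.51 with a pseudocount of 1. With a mean FPKM of 5 or more, the median of the members was -0.17, that of the FOXA list -1.86 and that of the FOXH1 list -0.20, and the cilium list kept 1 gene, at 1.03. Fewer or more genes pass these filters by construction. In fragments in place of FPKM, the share of forkhead RNA in Diff–CONT and in the Diff–iKO-labelled library was 4.69% and 1.48% for Foxa, 4.72% and 2.40% for Foxc and Foxf, 0.324% and 0.838% for Foxd3, 21.3% and 20.1% for Foxk and 12.2% and 10.9% for Foxp, and 23.1% and 28.5% for Foxo, since fragments grow with transcript length. With the members at the FPKM minimum alone, the share in Diff–CONT was 5.04% for Foxc and Foxf, 13.3% for Foxk and 16.2% for Foxp, and that of Foxo in the Diff–iKO-labelled library was 29.1%. Low fragment counts, such as the 19 of Foxa3 in the Diff–iKO-labelled library, widen the counting intervals, and variation between cultures was not measured.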
